A study of Callithrix jacchus with 5 samples.

Results

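The genes that copy DNA and those that move chromosomes were examined as 2 classes across the libraries of a study of the common marmoset (Callithrix jacchus), a New World monkey whose cells were grown in culture. Genes were taken whose symbol starts with MCM, ORC, RFC or GINS and a digit (the replication class) or with CENP or KIF (the mitosis class), with at least 10 counts in 1 library. The rule gave 74 gene identifiers (22 replication and 52 mitosis) among 30811 in the count table, and all 74 also passed the low-count filter of the tests. They carry 73 symbols, because KIF4A names 2 identifiers. Only 12660 identifiers (41.1%) have a symbol in the gene name table, so genes such as CENPA, CENPF and RFC1 were not matched and are not analysed here.

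RNA was sequenced in 5 libraries. They were 1 library of E01F fibroblasts at P1 and 1 library of induced pluripotent stem cells (RNAiPS_1), which the series title describes as obtained from fibroblasts by RNA-based reprogramming. These were set against 3 libraries of embryonic stem (ES) cells, the lines No40 at P63, DSY127 at P17 and No20 at P45, where P numbers are as the labels give them. The labels give neither age, sex nor genotype for any of them and do not say whether RNAiPS_1 came from the E01F fibroblasts or how many clones or animals a library stands for.

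Replication starts at origins, where the origin recognition complex (ORC1 to ORC6) loads the ring of MCM2 to MCM7. That ring becomes the replicative helicase once CDC45 and the GINS complex join it, and the RFC clamp loader places the sliding clamp PCNA on the DNA. At mitosis, most CENP proteins, though not CENPJ, help build the kinetochore on centromeric chromatin. A group of kinesins, motors that walk along or take apart microtubules, shape the spindle and complete cytokinesis. Many other KIF genes encode kinesins that carry cargo along axons, through the cytoplasm or into cilia and have no main role in division, so the mitosis class as the rule gives it is mixed: 12 CENP genes, 13 mitotic kinesins and 27 other KIF genes. These roles are known mainly from human, mouse and yeast. Cells in culture that divide transcribe both classes, replication genes chiefly towards S phase and mitosis genes chiefly towards G2 and M. Pluripotent cells are known for a short G1 phase.

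The total count over genes was 58601185 in the fibroblast library, 5746449 in the iPS library and 34111715 to 46523012 in the ES lines. Levels are CPM, that is counts brought to the same total in every library, after TMM factors that set the bulk of genes level. A count of 3 was worth 0.063 CPM in fibroblasts, 0.507 CPM in iPS cells and 0.061 to 0.083 CPM in ES lines. Of 7 pluripotency markers all 7 were lower in fibroblasts, with summed levels of 3.84 CPM in fibroblasts, 3707 CPM in iPS cells and 2937 to 4357 CPM in ES lines. The 6 measured fibroblast markers summed to 71084 CPM in fibroblasts, 10661 CPM in iPS cells and 1319 to 2483 CPM in ES lines, and 1 of them, COL1A2, passed the test as higher in iPS cells than in ES lines. In such bulk RNA, fewer dividing cells and less RNA per dividing cell cannot be told apart.

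Within the ES lines the highest means of the replication class per unit of gene length were those of MCM ring genes. MCM7, MCM2 and MCM4 averaged 115, 96.8 and 91.4 CPM per kb over the 3 ES lines, and RFC2, a small subunit of the clamp loader, averaged 88.6 CPM per kb. MCM7 varied, at 82.5, 104 and 160 CPM per kb in No40, DSY127 and No20. The ring gene MCM5 averaged 62.1 CPM per kb, below RFC4 at 65.4 and GINS4 at 63.4 CPM per kb. MCM9, a paralog of the ring that works with MCM8 in homologous recombination, and ORC2, an origin recognition subunit, were near the bottom at 1.99 and 1.96 CPM per kb. On the same per-length scale KIF20A, a kinesin of cytokinesis, led the mitosis class with 67.9 CPM per kb, and KIF19 and KIF6 were lowest at 0.095 and 0.286 CPM per kb.

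The first comparison set the fibroblast library against the ES lines. Replication genes stood mostly lower in fibroblasts: 16 of 22 lay below all 3 ES lines, where 39.0% of all 17462 genes tested did, and 2 (MCM3AP and ORC2) lay above all 3, where 35.4% of all genes did. Of 25 CENP genes and mitotic kinesins, 8 lay below and 7 above all 3 ES lines, although a wider list of 54 other mitosis genes had 33 below and 11 above. The 27 other KIF genes had 15 below and 7 above, and the whole mitosis class had 23 of 52 below and 14 above. The members that changed were 6 kinesins of the transport group, 5 lower and 1 higher.

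The test was edgeR's quasi-likelihood test with Benjamini-Hochberg adjustment over all genes tested, called at an adjusted p under 0.05. In it 6 of 74 members were called, against 18.1% of all genes tested (9.28% lower and 8.8% higher). No replication gene was called, and neither was a CENP gene or a mitotic kinesin. At an unadjusted p under 0.05, 3 of 22 replication genes were lower and 0 higher, and 11 of 52 mitosis genes were lower and 2 higher, where 18.3% of all genes were lower, 15.7% higher and 34.0% either. DESeq2 called 3 replication genes lower, and limma voom called 0. The fibroblast and iPS libraries have no replicates, so the spread comes from the 3 ES lines alone with 2 residual degrees of freedom, and the lone libraries are assumed to vary as an ES line does. The p-values therefore measure only the spread between 3 lines, which also differ in P number. That spread is not each gene's alone, as the edgeR test moderates it with a trend over all genes tested. A common coefficient of variation of 0.458 means that moderate differences may not be detectable.

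Median shifts describe the classes, with no test over members. Relative to the mean of the ES lines in log2 CPM, the median replication gene was at -0.62 in fibroblasts and the median mitosis gene at -0.16, beside -0.09 for all genes tested. The replication-minus-mitosis difference was -0.46 in fibroblasts. Each ES line set against the other 2 gave differences of -0.28 in No40, 0.32 in DSY127 and -0.04 in No20, so the fibroblast value lay outside their range. With the mitosis class narrowed to CENP genes and mitotic kinesins, whose median was 0.05, the fibroblast difference was -0.67, and the ES lines spanned -0.23 to 0.27. The 27 other KIF genes left out by this had a median of -0.60 in fibroblasts, near that of the replication class. The replication median depended on the ES lines: it was -0.37 without No20, while the difference was -0.30 without DSY127. With total counts in place of TMM the replication median was -1.01 and the median of all genes moved by -0.37. The mitosis median was 0.03 without No40.

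**Figure D1:**
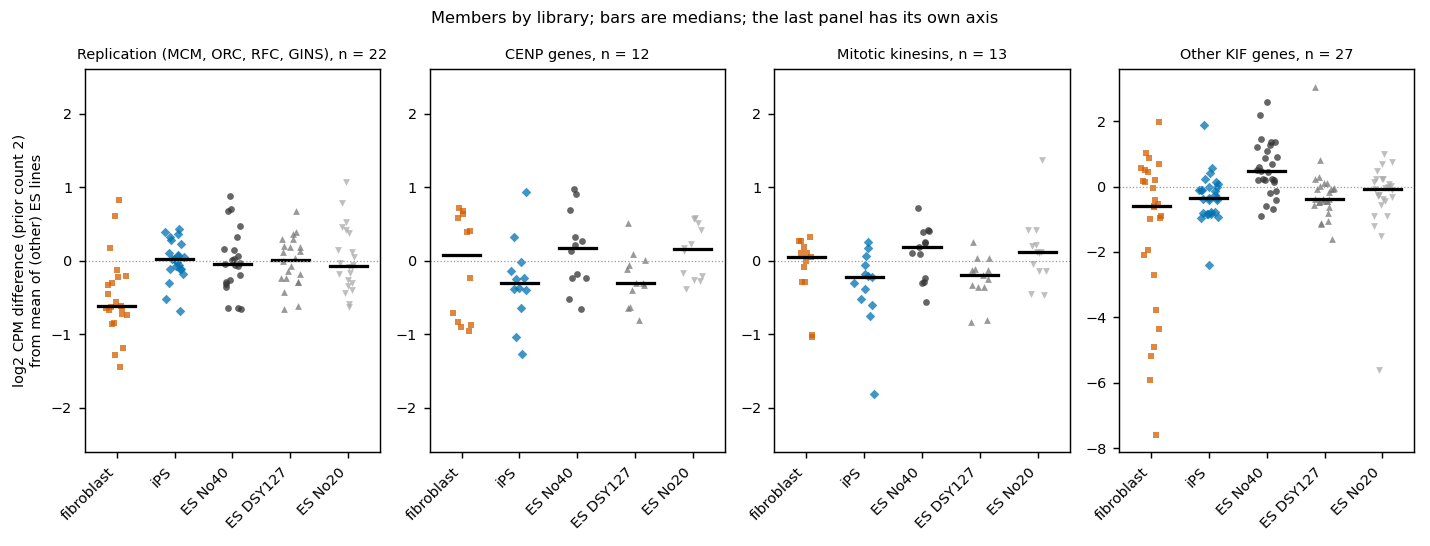
Each point is 1 gene; the y axis is its log2 CPM (prior count 2) minus the mean of the ES lines, or of the other 2 ES lines for an ES line, in 4 panels by family with libraries along the x axis and medians as bars. Replication genes in fibroblasts have a median of -0.62, while CENP genes (0.08) and mitotic kinesins (0.05) in fibroblasts sit near 0. Other KIF genes in fibroblasts have a median of -0.60.

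The lowest fold changes of the replication class in fibroblasts were those of origin recognition genes. ORC6, the subunit least like the others, had 20.1 CPM in fibroblasts, against 53.0, 48.0 and 65.3 CPM in ES lines No40, DSY127 and No20. The fibroblast library was below all 3, by a log2 fold change of -1.46 ± 0.42 (SE, edgeR adjusted p = 0.056). ORC1, the ATPase subunit that recognises origins and is degraded after S phase begins in human cells, had 46.9 CPM in fibroblasts, against 122, 126 and 97.3 CPM. Its log2 fold change was -1.30 ± 0.38 (edgeR adjusted p = 0.059), again with no overlap. Both missed the threshold here and passed it with DESeq2, with upper-quartile factors, with total counts and with a stricter low-count filter. ORC3 had 43.4 CPM in fibroblasts, against 70.1, 71.9 and 73.8 CPM, and ORC4 and ORC5 lay just under the lowest ES line. ORC2 went the other way, at 13.3 CPM in fibroblasts, against 11.3, 6.56 and 5.69 CPM, with a log2 fold change of 0.76 ± 0.59 that did not pass (edgeR adjusted p = 0.409).

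Of 10 MCM genes, 6 lay below and 1 above all 3 ES lines in fibroblasts, where 39.0% and 35.4% of all genes tested did. MCM10, which helps activate the loaded helicase, had 49.5 CPM in fibroblasts, against 141, 104 and 98.5 CPM in ES lines, a log2 fold change of -1.21 ± 0.40 (edgeR adjusted p = 0.083). MCM8 had 48.7 CPM in fibroblasts, against 86.3, 100.3 and 77.8 CPM. Both were below all 3 ES lines. Summed over MCM2 to MCM7, the helicase ring stood at 1223 CPM in fibroblasts, against 1603, 1801 and 1648 CPM. Of its 6 genes MCM3, MCM4, MCM6 and MCM7 lay below every ES line, whereas MCM2 at 281 CPM was between 267 CPM in No20 and 375 CPM in DSY127. MCM5 at 151 CPM was likewise inside the ES range of 100.2 to 183 CPM. MCM9 also lay within the ES lines, at 7.62 CPM in fibroblasts. MCM3AP is no ring subunit but a factor in the nuclear export of messenger RNA that binds MCM3. It had 263 CPM in fibroblasts, against 153, 184 and 182 CPM, and its log2 fold change of 0.60 ± 0.32 did not pass (edgeR adjusted p = 0.235).

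Clamp loader genes lay below every ES line in fibroblasts, all 4 of those measured, where 39.0% of all genes tested did. RFC3 had 31.97 CPM in fibroblasts, against 58.4, 58.8 and 56.6 CPM, a log2 fold change of -0.86 ± 0.37 (edgeR adjusted p = 0.153). RFC5 had 35.4 CPM in fibroblasts, against 50.2, 57.3 and 71.8 CPM. RFC2 and RFC4 had 81.2 and 54.4 CPM in fibroblasts, against lowest ES values of 92.2 and 62.6 CPM. The gap was clear of the ES spread for RFC3, whose 3 ES lines agree closely, and small beside it for RFC4. Of the 2 measured GINS genes, GINS4 had 35.0 CPM in fibroblasts, against 55.8, 57.2 and 49.9 CPM, below all 3. GINS1 at 16.7 CPM was within the ES range of 15.9 to 29.1 CPM.

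**Figure D2:**
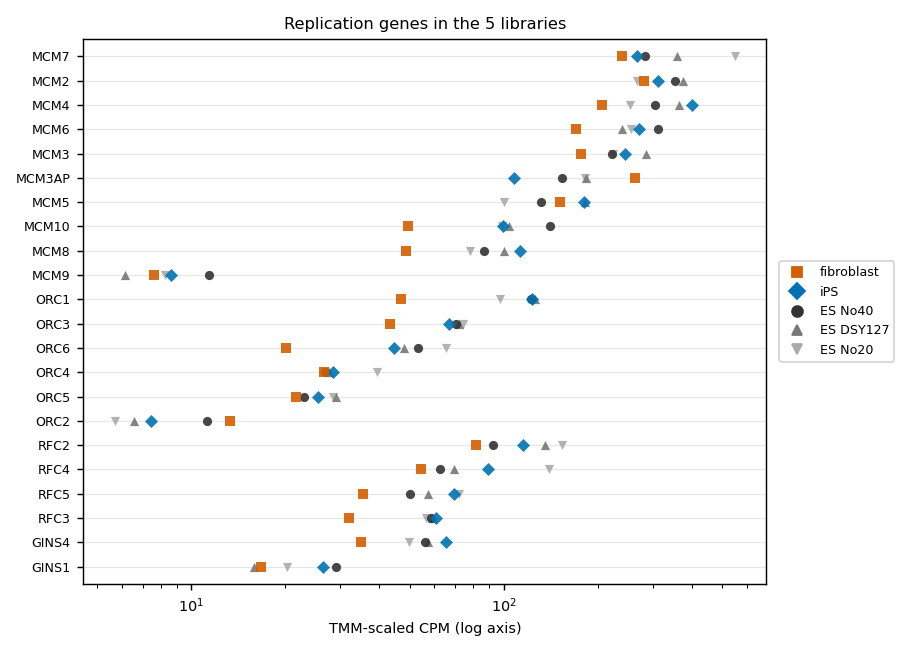
TMM-scaled CPM on a log axis for the 22 replication genes, grouped by family down the page, with 1 marker per library. Fibroblast squares lie left of every ES line for 16 genes, for example ORC6 at 20.1 CPM, and right of every ES line for MCM3AP at 263 CPM and ORC2 at 13.3 CPM.

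CENP genes lay on both sides of the ES lines in fibroblasts, in shares near those of all genes tested. CENPE, a kinesin-like motor that moves chromosomes to the spindle equator, had 180 CPM in fibroblasts, against 121, 81.9 and 133 CPM in ES lines No40, DSY127 and No20, above all 3 (log2 fold change 0.69 ± 0.38). CENPH, part of the inner kinetochore, had 27.6 CPM in fibroblasts, against 55.5, 40.7 and 52.2 CPM, below all 3 (log2 fold change -0.84 ± 0.40). Neither passed, with edgeR adjusted p = 0.252 for CENPE and 0.186 for CENPH. CENPC, which ties centromeric nucleosomes to the outer kinetochore, was inside the ES range at 19.3 CPM in fibroblasts. In all, 5 of 12 CENP genes were below and 5 above every ES line, where 39.0% and 35.4% of all genes tested were. Of these 12, 10 are inner kinetochore genes, a list without CENPE and CENPJ, and 4 of the 10 were below and 4 above. The 12 CENP genes summed to 422 CPM in fibroblasts, against 460, 408 and 464 CPM. CENPT, chosen for mention after its value was seen, was the 1 CENP gene with an unadjusted p under 0.05, at 47.9 CPM in fibroblasts, against 82.9, 117 and 81.5 CPM.

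Among mitotic kinesins, a pair stood apart from the rest. KIF23, a subunit of the centralspindlin complex of cytokinesis, had 107.7 CPM in fibroblasts, against 264, 197 and 208 CPM, a log2 fold change of -1.05 ± 0.37 (edgeR adjusted p = 0.098). KIF2C, a microtubule depolymerase that corrects faulty attachments, had 75.4 CPM in fibroblasts, against 170, 144 and 141 CPM, a log2 fold change of -1.01 ± 0.36 (edgeR adjusted p = 0.099). Both lay below all 3 ES lines, did not pass, and passed with total counts in place of TMM. KIF20A was also below them, at 151 CPM in fibroblasts, against 162, 175 and 226 CPM. KIF11, the motor that pushes spindle poles apart, had 233 CPM in fibroblasts, against 241, 183 and 228 CPM, and so was within the ES lines. KIFC1, a motor that pulls towards microtubule minus ends, was barely inside them at 85.1 CPM in fibroblasts, against 114, 117 and 84.5 CPM. KIF4A, a chromosome-bound kinesin, had 74.5 CPM in fibroblasts, against 64.5, 56.7 and 65.2 CPM at its X chromosome identifier (log2 fold change 0.26 ± 0.34). The identifier named KIF4A on chromosome 3 had 3.76 to 4.73 CPM in all 5 libraries. How alike the pair is in sequence was not examined, and reads may be split between them.

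**Figure D3:**
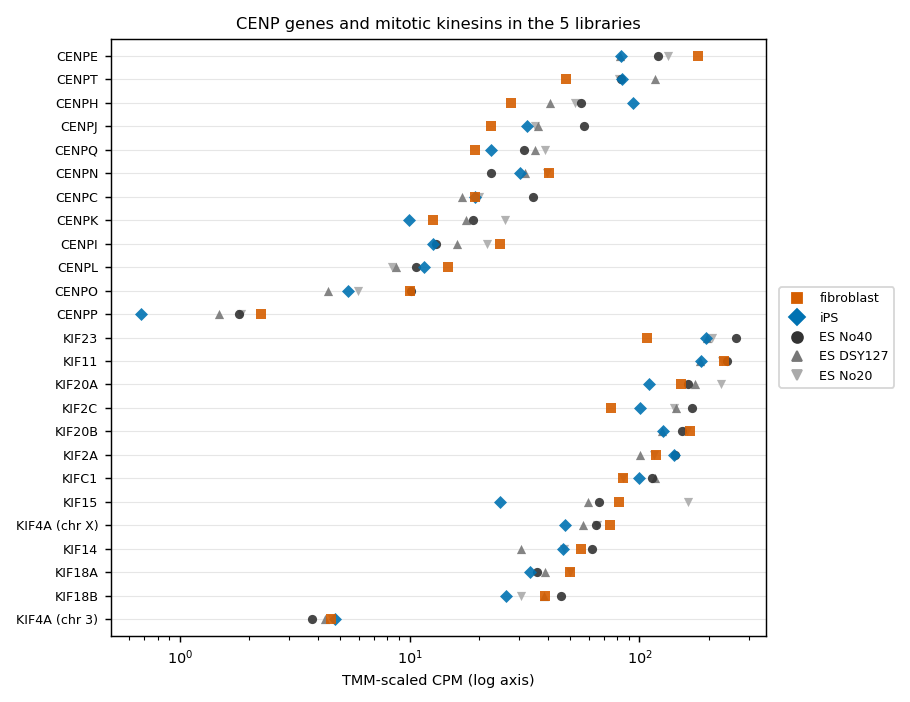
TMM-scaled CPM on a log axis for 12 CENP genes and 13 mitotic kinesins, with 1 marker per library. Fibroblast squares fall on both sides of the ES markers, as for CENPE at 180 CPM and KIF2C at 75.4 CPM, and the iPS diamond for KIF15 at 24.7 CPM is far left of the others.

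The members that fell in fibroblasts were kinesins best known from neurons. KIF21B, which regulates microtubule growth, had 0.693 CPM in fibroblasts, against 261, 139 and 82.7 CPM in ES lines, with a log2 fold change of -7.85 ± 0.998 (edgeR adjusted p = 0.0047). Its relative KIF21A had 2.81 CPM in fibroblasts, against 28.8, 38.3 and 56.0 CPM (log2 fold change -3.86 ± 0.63, edgeR adjusted p = 0.0097). Fibroblasts were thus far below every ES line for the pair, although KIF21B itself varied 3.15-fold among ES lines, and without No40 its log2 fold change was -7.24. KIF1A, a carrier of synaptic vesicle precursors, had 2.65 CPM in fibroblasts, against 61.1, 58.4 and 48.7 CPM (log2 fold change -4.40 ± 0.50, edgeR adjusted p = 0.0034).

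Conventional kinesin, the KIF5 family, differed by paralog. KIF5C had 0.882 CPM in fibroblasts, against 99.4, 65.0 and 27.8 CPM, with a log2 fold change of -6.18 ± 0.99 (edgeR adjusted p = 0.0092). KIF5A had 0.336 CPM in fibroblasts, against 26.5, 8.59 and 12.2 CPM, with a log2 fold change of -5.54 ± 1.05 (edgeR adjusted p = 0.016), or -4.87 without No40. The broadly expressed KIF5B had 396 CPM in fibroblasts, against 365, 247 and 278 CPM, slightly above all 3 and not called (log2 fold change 0.42 ± 0.35). KIF13A, which carries cargo of recycling endosomes, was the member that rose, with 186 CPM in fibroblasts, against 49.8, 46.2 and 45.1 CPM (log2 fold change 1.99 ± 0.31, edgeR adjusted p = 0.0086). Its ES lines lie within 1.10-fold of each other. The other members with the largest positive fold changes were not called: KIFC3, a minus-end motor, had 20.5 CPM in fibroblasts, against 8.19, 14.6 and 8.30 CPM, and KIF1C, a carrier towards the cell edge, had 402 CPM, against 202, 234 and 230 CPM. The 6 calls were made under all 11 alternatives to scaling, filter, tool, ES lines and depth.

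Among the other transport and ciliary kinesins no call was made. KIF12 had no count in fibroblasts, against 5.404, 6.76 and 0.069 CPM in ES lines No40, DSY127 and No20, so No20 was almost as low. Against the value of 3 counts in the fibroblast library its mean in ES lines was at least 64.7-fold higher, or 96.5-fold without No20, and only then, with DESeq2 or with no low-count filter did it pass. KIF3A, a motor subunit of anterograde ciliary transport, had 46.0 CPM in fibroblasts, against 107.01, 57.4 and 57.9 CPM, below all 3 but not called (log2 fold change -0.69 ± 0.49). Beside this group, summed markers of ciliated cells (3 of 5 measured) were at 5.50 CPM in fibroblasts, against 131, 54.8 and 72.9 CPM, a sum set mostly by DNAH5. Of 4 measured neural markers (of 5 listed), NES fell in fibroblasts, at 43.1 CPM, against 551, 741 and 270 CPM, and PAX6 rose, at 12.0 CPM, against 0.610, 0.918 and 2.10 CPM. TUBB3 and MAP2 lay above all 3 ES lines without passing, so the median neural marker was at 1.82 on the log2 scale, while the 4 summed to 562 CPM in fibroblasts, against 770, 1098 and 539 CPM. None of these markers was at 0 in any library, but the ciliated markers DNAI1 and RSPH1 were each at 0.042 CPM in fibroblasts. That is below the value of 3 counts there (0.063 CPM). The part of such cells in the kinesin values was not tested.

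**Figure D4:**
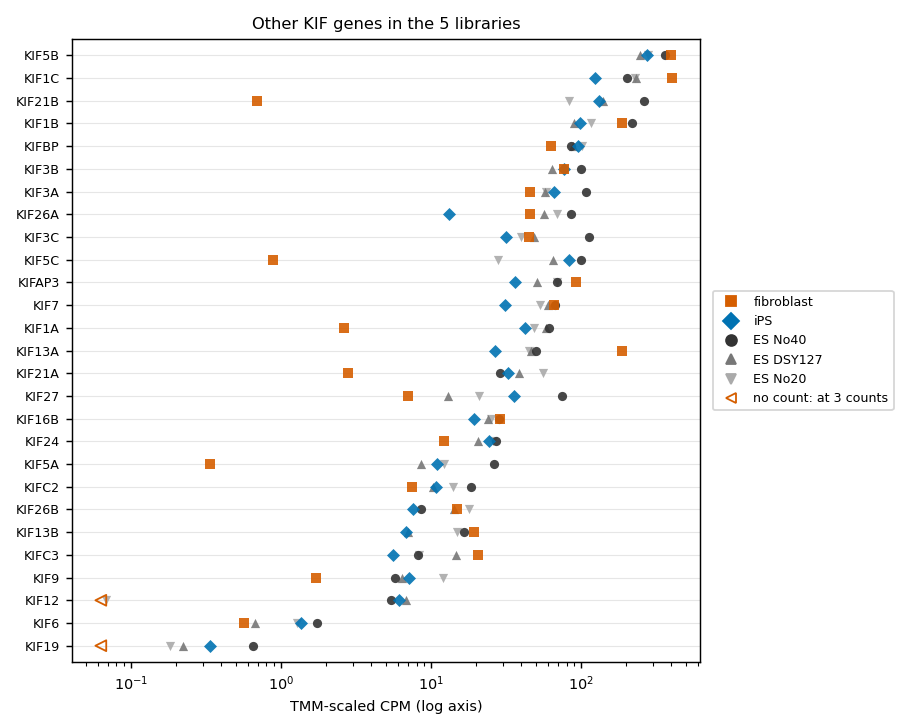
TMM-scaled CPM on a log axis for the 27 other KIF genes, with 1 marker per library; open triangles put a library with no count at the value of 3 counts. Fibroblast squares for KIF21B, KIF5C, KIF1A, KIF21A and KIF5A stand far left of the other libraries, and the square for KIF13A at 186 CPM stands right of them.

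Gene lists of the same pathways that share no member put the class difference in context. Of 36 other identifiers in the replication pathway, 3 were lower and 0 higher in fibroblasts by the edgeR test (6 and 0 at an unadjusted p under 0.05), and 19 lay below and 6 above all 3 ES lines, with a median of -0.23 on the log2 scale. Of 54 other mitosis genes, 2 were lower and 0 higher (10 and 2 at an unadjusted p under 0.05), and 33 lay below and 11 above all 3 ES lines, with a median of -0.36. These counts of lower genes are near or below the shares of all genes tested (9.28% adjusted and 18.3% unadjusted). In these wider lists the median mitosis gene was thus the lower one, the opposite order to the members. With each ES line set against the other 2, it was also lower in No40 (0.02 beside 0.14 for replication) and DSY127 (-0.19 beside -0.06). In No20 it was not (0.0074 beside -0.0043). The gap in fibroblasts was thus of a size also seen among ES lines. Among those lower, CHTF18, of an alternative clamp loader, had a log2 fold change of -1.90 ± 0.42, and DNA2, a nuclease of Okazaki fragments, one of -1.87 ± 0.48. OIP5 and MIS18A, both of the Mis18 complex that licenses centromeres for CENPA, had log2 fold changes of -1.80 ± 0.39 and -1.70 ± 0.46.

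Of 16 measured regulators of arrest and cell cycle transcription, 2 were called higher and 2 lower, where 8.8% and 9.28% of all genes tested were. CDKN2B, an inhibitor of the G1 kinases, had 26.5 CPM in fibroblasts, against 3.70, 6.76 and 3.48 CPM in ES lines (log2 fold change 2.51 ± 0.57), and RBL2, a repressor of the retinoblastoma family, rose by 2.03 ± 0.46 on the log2 scale. MYBL2, an activator of mitotic genes, had 151 CPM in fibroblasts, against 2629, 2919 and 846 CPM (log2 fold change -3.82 ± 0.83). CDKN1C, an inhibitor of cyclin-dependent kinases, had a log2 fold change of -3.01 ± 0.76. No cell cycle phase was measured in these libraries, and the part of cell cycle phase in the values above was not tested.

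The second comparison set the iPS library against the same ES lines, so it shares its controls with the first. Replication genes of iPS cells lay among those of the ES lines: 4 of 22 were below and 4 above all 3 ES lines, where 31.5% and 26.5% of all genes tested were. Of the mitosis genes 23 of 52 were below all 3 ES lines and 3 above. None of the 74 members was called by edgeR, against 0.109% of all genes tested (19 higher and 0 lower). At an unadjusted p under 0.05, 1 member was higher and 4 were lower of 74, where 5.56% of all genes were higher, 3.13% lower and 8.69% either. DESeq2 called 1 member lower and limma voom called 0.

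Median shifts in iPS cells were 0.02 for replication genes and -0.28 for mitosis genes, beside -0.05 for all genes tested. Their difference of 0.30 lay within the range of the ES lines, just under the 0.32 of DSY127. With CENP genes and mitotic kinesins alone it was 0.270, marginally above the 0.266 of DSY127. The summed helicase ring stood at 1674 CPM in iPS cells, against 1603, 1801 and 1648 CPM in ES lines No40, DSY127 and No20. Origin recognition genes summed to 295 CPM in iPS cells, against 307, 309 and 310 CPM, and clamp loader genes to 334 CPM, against 263, 321 and 420 CPM. MCM4 at 399 CPM in iPS cells lay above every ES line (305, 362 and 253 CPM), and MCM7 at 267 CPM lay below them (283, 357 and 549 CPM). Neither difference passed the edgeR test, with adjusted p = 0.800 for MCM4 and 0.770 for MCM7.

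A few mitosis genes set the iPS library apart in size without passing. KIF26A, a kinesin-like protein that lacks motor activity, had 13.2 CPM in iPS cells, against 85.4, 56.8 and 69.0 CPM, with a log2 fold change of -2.42 ± 0.47 (edgeR adjusted p = 0.140). It was the member DESeq2 called (adjusted p = 1.2e-04), and over all alternatives its adjusted p ran up to 0.497. KIF15, a spindle motor that works beside KIF11, had 24.7 CPM in iPS cells, with a 95% exact Poisson interval of 20.8 to 29.0 CPM for counting error only, against 66.5, 59.4 and 163 CPM (log2 fold change -1.96 ± 0.71, edgeR adjusted p = 0.502). KIF3C, a partner of KIF3A, had 31.4 CPM in iPS cells, against 112, 48.3 and 39.5 CPM (log2 fold change -1.09). CENPH had 94.0 CPM in iPS cells, against 55.5, 40.7 and 52.2 CPM, a log2 fold change of 0.93 ± 0.36 (edgeR adjusted p = 0.532). For KIF26A, KIF15 and KIF3C the iPS library was below all ES lines, and for CENPH above all. The kinesins that fell in fibroblasts were near ES levels in iPS cells: KIF21B had 132 CPM, KIF5C 83.2 CPM, KIF5A 10.99 CPM and KIF21A 32.8 CPM, each inside the ES range, and KIF1A had 42.4 CPM, just under its lowest ES line. KIF13A, which rose in fibroblasts, had 26.5 CPM in iPS cells, below all 3 ES lines. Of the 6 fibroblast markers, the collagens COL1A1, COL1A2 and COL3A1 were higher in the iPS library than in any ES line, DCN and PDGFRB were lower than in any, and VIM was within the ES range. Their part in its mitosis values was not tested.

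**Figure D5:**
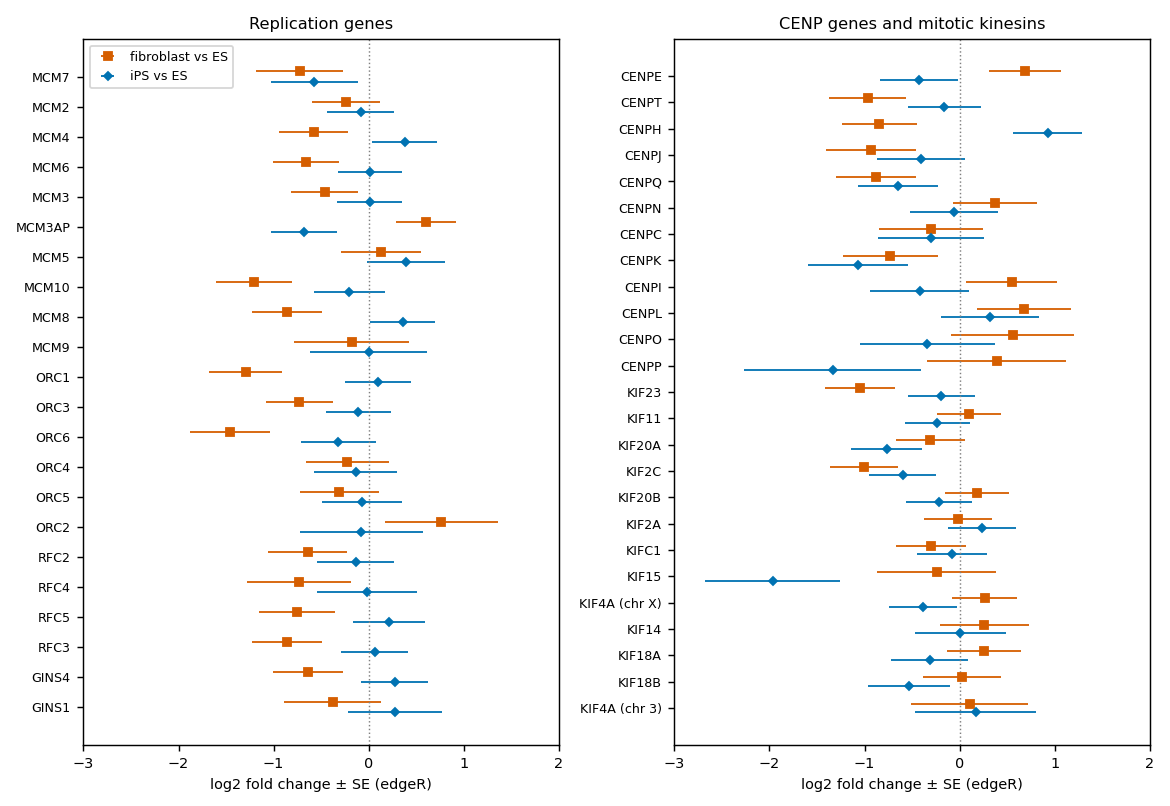
Log2 fold change ± SE from edgeR for replication genes (left) and for CENP genes and mitotic kinesins (right), as squares for fibroblast vs ES and diamonds for iPS vs ES. Fibroblast squares lie left of 0 for 19 of 22 replication genes and for 12 of 25 genes in the right panel, and none of these differences passed the adjusted threshold.

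Setting the iPS library directly against the fibroblast library, with 1 library each and no test, gave opposite shifts for the classes. The median replication gene was higher in iPS cells by 0.64 on the log2 scale, with 20 of 22 genes higher. The median mitosis gene was at -0.29, with 24 of 52 higher, beside 0.03 for all genes tested. Within the mitosis class the medians were -0.35 for CENP genes, -0.33 for mitotic kinesins and 0.52 for other KIF genes. In the wider pathway lists the medians had the same sign, at 0.25 for replication (23 of 36 higher) and 0.09 for mitosis (32 of 54 higher). ORC1 had 123 CPM in iPS cells, against 46.9 CPM in fibroblasts, the largest ratio of the replication class at 2.62. MCM3AP had 108 CPM in iPS cells, against 263 CPM in fibroblasts, the smallest ratio at 0.410. The mitosis median turned to 0.05 with total counts in place of TMM. The difference between the classes was 0.93 with either scaling. A change of scaling moves all genes of a library nearly alike, so it cannot test that difference.

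Among the ES lines, No20 differed from its fellows for a few members. RFC4 had 139 CPM in No20, against 62.6 and 69.4 CPM in No40 and DSY127, or 2.11-fold their mean. KIF15 had 163 CPM in No20, against 66.5 and 59.4 CPM (2.59-fold), and KIF9, a member chosen after its value was seen, had 12.0 CPM, against 5.75 and 6.37 CPM (1.98-fold). These 3 genes all start before 60 Mb on chromosome 15 in the files' coordinates, at positions 8386169 (RFC4), 20448550 (KIF15) and 22882800 (KIF9). Of 408 genes tested in that stretch, 77.7% were above the mean of the other 2 lines in No20, with a median of 0.51 on the log2 scale. Of 256 genes tested beyond it, where MCM2 lies, 47.7% were, with a median of -0.03. On chromosome 9, 67.9% of 881 genes tested were above the other 2 lines in No20 (median 0.32), and of its 3 members RFC5 was 1.34-fold and KIF21A 1.67-fold their mean, while KIF5A was 0.695-fold. The split at 60 Mb was set after seeing the values, and with 1 library a line there is no test. MCM7, on chromosome 2 from 11807324 to 11815652, had 549 CPM in No20, 1.71-fold the mean of the other 2 lines, and its model overlaps AP4M1 and PVRIG, so reads may be shared.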

How the data were processed

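RNA of 1 fibroblast, 1 iPS and 3 ES libraries was measured by sequencing. The counts the authors deposited are whole reads per gene with no normalization. They come as 1 table of the series and as single-library files, with identical values. Total RNA was extracted with an RNeasy Mini Kit, per the labels' protocols. The submitters' processing notes name the tools Trim Galore (version 0.4.0), STAR (version 2.5.3a) and featureCounts (version 1.5.2), without role or order. Not given in the sources used here: the genome build and the strand and overlap settings. Of the 74 members, 33 have a gene model that overlaps another, and kinesin paralogs may share reads, so their counts are uncertain to that extent. Of the called members KIF13A, KIF21A and KIF5A have such an overlap, and KIF1A, KIF21B and KIF5C do not. ORC1 has one as well. Coordinates are those of the files, 1-based. Gene lengths for CPM per kb are those of the deposited table. Promoters and their motifs were not analysed here.

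Groups follow the cell type label. The main test was edgeR 4.0.16 in R 4.3.3 (filterByExpr on the 3 groups, TMM, glmQLFit and glmQLFTest on all 5 libraries with group as the factor), which tested 17462 genes. Adjusted p-values are Benjamini-Hochberg over all of them. Log2 CPM for the medians used a prior count of 2. Alternatives were DESeq2 1.42.0, limma 3.58.1 (voom), other scalings, filters and prior counts, thinned counts, other member lists, and leaving out each ES line. The steps were tested on simulated counts in which every library varied as an ES line does. That test therefore cannot check this assumption for the lone libraries. Intervals and floors of 3 counts cover counting error only, as the labels name no molecular identifiers. A replication list without MCM3AP was an alternative chosen after seeing the data.

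The members, the lists and the rule for named genes were chosen with earlier results of these data known. Named were all replication members, all called CENP and KIF members, 12 set CENP and KIF genes, the 3 with the largest fold changes in each direction of each comparison where the higher group reached 5 CPM, and up to 4 called genes per direction of each other list. Some genes the rule gives are described only in counts. A gene that this rule gives is not reported here.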

Additional observations from a re-analysis of the deposited data

How the results depend on the processing

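Of the counts of calls in fibroblasts against ES lines, DESeq2 moved members called to 12 in place of 6, replication members lower to 3 in place of 0 (MCM10, ORC1 and ORC6) and mitosis members lower to 8 in place of 5. Total counts gave 11 members called and 3 replication members lower, and upper-quartile factors and the strict filter (at least 1 CPM in 3 libraries) gave 2 replication members lower each. Leaving out 1 ES line gave 6 to 7 members called. In iPS cells against ES lines DESeq2 gave 1 member called, a mitosis gene that was lower, in place of 0.

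The replication median in fibroblasts was -0.88 with upper-quartile factors, -1.01 with total counts, -0.69 with counts thinned to the shallowest library and -0.52 to -0.37 without 1 ES line, and the mitosis median was -0.54 with total counts. The replication median in iPS cells, 0.02, was -0.023 with total counts, 0.10 with the strict filter, 0.084 with thinned counts and -0.026 to 0.035 without 1 ES line. Between iPS and fibroblast libraries the replication median was 0.94 with upper-quartile factors and 0.98 with total counts, and the mitosis median 0.0050 and 0.048. The cause of these shifts was not tested. The replication-minus-mitosis difference in fibroblasts ran from -0.67 to -0.30 over the alternatives run. Other scalings left it at -0.46, but they move all genes of a library nearly alike and so cannot test it. In the wider pathway lists the order was the opposite, with medians of -0.23 for replication and -0.36 for mitosis.

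Of 1012 gene results under alternatives, 16 newly passed the threshold, 0 lost a call and 46 changed sign where no call was made. No paired analysis was possible because the fibroblast and iPS groups have 1 library each. The iPS library, the shallowest, limits what can be seen below about 0.507 CPM.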
